A study of Mus musculus with 9 samples.

Results

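Venous-enriched coronary endothelial cells were compared with endocardial cells, both sorted from the ventricles of the same kind of fetal mouse heart. The comparison took the 3 venous and 3 endocardial libraries, 6 of the 9 libraries of the series, and every gene that passed a filter on low counts. The 3 arterial-enriched libraries stayed out of the contrast and lent it their estimate of the spread; their levels are given beside some genes. All embryos carried a Nes-Gfp(Tg/0) and a Nes-CreER(Tg/0) transgene beside the reporter allele R26(tom/+), had been exposed to 0.1 ug of tamoxifen at E15.5 and were taken at E17.5. The Nes transgenes mark endothelium with GFP and allow a tamoxifen-dependent Cre to switch on Tomato. Both gates kept viable cells that were negative for Ter119 and CD45 and positive for CD31 and GFP. The venous gate further asked for low endomucin, no Tomato and low GFP, whereas the endocardial gate as written set no limit on endomucin or Tomato and so may have held other endothelial cells. The arterial gate took cells with low endomucin and Tomato. The labels give each replicate a batch number and do not say how many hearts were pooled, so that p-values reflect how far these libraries vary among themselves, in part perhaps for technical reasons.

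The endocardium is the endothelial sheet that lines the heart chambers and faces the trabecular muscle. It forms the valve cushions, and signals to the myocardium through factors such as neuregulin. Coronary endothelium lies within and on the heart wall, and near birth it is still branching into capillaries and veins that take up fatty acids for the muscle. Coronary endothelial cells arise in part from the sinus venosus and in part from the endocardium, so that the populations are related by lineage.

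The libraries held 12750553 to 19474419 counts. Endocardial replicate 1 stood apart from its group on the first 2 principal components, at 35 and -139, where its replicate 2 lay at 115 and -1.8 and its replicate 3 at 117 and 16.2. One predicted gene, Gm42418, made up 4.13% to 11.09% of counts in the 6 libraries. Levels below are in CPM, counts scaled to the depth of each library with TMM factors. Fold changes are log2 values, venous minus endocardial, with their standard error (SE). Calls required an adjusted p under 0.05 (edgeR's quasi-likelihood test, Benjamini-Hochberg over all genes), and every adjusted p below comes from that test. Genes of the sort describe the gates and not a finding. Emcn, which encodes endomucin, stood at 249.4 ± 18.5 CPM (SD, n = 3) in the venous and 679.3 ± 65.6 in the endocardial libraries. Nes, whose regulatory sequence drives the reporters, stood at 448.4 ± 116.4 and 148.7 ± 1.07 CPM. Pecam1, which encodes CD31, stood at 933.7 ± 92.9 and 753.3 ± 100.8 CPM and was not called (adjusted p = 0.266).

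The labels were checked with 4 genes. Aplnr, the apelin receptor of sprouting and venous coronary endothelium, stood at 397, 431.1 and 324.7 CPM in venous replicates 1 to 3 and at 40.8, 39.5 and 49.6 CPM in endocardial replicates 1 to 3; libraries are listed in this order throughout. Meox2, a homeobox factor of capillary endothelium in heart and muscle, stood at 185, 171.4 and 233.2 against 15.4, 10.3 and 11.9 CPM. Both were higher in every venous library, by 3.15 ± 0.21 (SE) and 3.97 ± 0.22 on the log2 scale (adjusted p = 4.98e-08 and 7.07e-09). Npr3, the natriuretic peptide clearance receptor used as an endocardial lineage marker, stood at 65.2, 38.8 and 43.1 CPM in venous and 2083, 2416 and 2452 CPM in endocardial libraries. Plvap, which builds the diaphragms of fenestrae and caveolae, stood at 13.1, 7.84 and 4.92 against 79.5, 229.8 and 195.1 CPM. These genes were higher in every endocardial library, with log2 fold changes of -5.56 ± 0.34 and -4.29 ± 0.60 (adjusted p = 1.18e-06 and 0.00239). All 4 genes thus went the way of the labels.

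Of 17103 genes tested, 1753 (10.2%) were called. The venous libraries were higher for 994 genes (5.81%) and the endocardial libraries for 759 (4.44%). Among called genes the endocardial side held the larger differences, with 315 past 4-fold against 200 on the venous side. Over all genes tested, 2229 passed 4-fold in either direction. Replicates correlated less in endocardial (0.843 to 0.89) than in venous libraries (0.925 to 0.947). The median log2 fold change of called genes was -1.73 on the endocardial and 1.25 on the venous side. Over all genes tested the median was -0.10. Groups did not overlap for 991 of the 994 and 754 of the 759 called genes, beside 14.9% of all genes tested with the 3 venous libraries on top and 13.3% with the 3 endocardial ones on top. Within the batches, 992 and 758 of the called genes kept their direction in all 3, beside 46.76% of all genes tested. Groups that do not overlap must keep their direction in every batch. The calls came from the same values, so that these counts describe the called genes and add no separate evidence. The plot of fold change against level shows called genes at nearly every level. Of the 994 genes called higher in venous libraries, 750 were also called higher in arterial than in endocardial ones, beside 1012 of all genes tested. Both contrasts share the endocardial libraries, so that the 750 are no separate evidence. Of the 994, 10 were called higher in venous than in arterial libraries and 18 lower, beside 130 (0.76%) and 53 (0.31%) of all genes tested. Venous replicate 3 bore most on the count, which was 1130 without it (668 and 462). Without endocardial replicate 1, the one that stood apart, 1822 genes were called, of which 1468 were among the 1753.

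**Figure D1:**
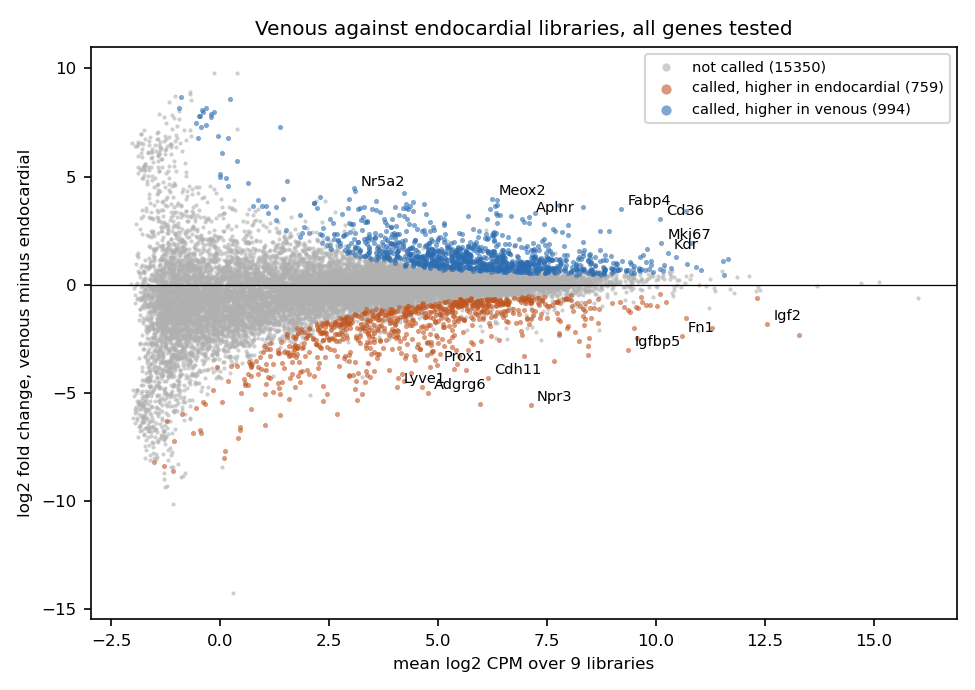
Fold change against level for the 17103 genes tested. The x axis is the mean log2 CPM over 9 libraries and the y axis the log2 fold change, venous minus endocardial; each point is a gene, blue for the 994 called higher in venous, orange for the 759 called higher in endocardial and grey for genes not called. Meox2, Fabp4 and Cd36 lie near the upper edge, and Npr3 and Adgrg6 near the lower edge of the well-expressed genes.

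Among well-expressed genes (mean log2 CPM of at least 4 over the 9 libraries) with no overlap between groups, Depp1 had the largest rise in venous and Npr3 the largest rise in endocardial libraries. Depp1, an autophagy regulator, lies on chromosome 6, 116650609 to 116652794, plus strand of GRCm38, and Npr3 lies on chromosome 15, 11839896 to 11907287, minus strand. The 250 bases that precede each RefSeq start site, at chr6:116650434-116650683 on the plus strand and chr15:11907372-11907621 on the minus strand (GRCm38.p6), are shown because these genes stood at the opposite ends of the comparison; the GENCODE start of Depp1 lies within its window.
Depp1: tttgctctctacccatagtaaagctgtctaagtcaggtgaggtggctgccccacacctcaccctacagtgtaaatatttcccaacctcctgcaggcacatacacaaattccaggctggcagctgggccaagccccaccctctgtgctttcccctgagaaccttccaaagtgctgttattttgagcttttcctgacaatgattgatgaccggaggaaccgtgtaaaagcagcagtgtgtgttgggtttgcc
Npr3: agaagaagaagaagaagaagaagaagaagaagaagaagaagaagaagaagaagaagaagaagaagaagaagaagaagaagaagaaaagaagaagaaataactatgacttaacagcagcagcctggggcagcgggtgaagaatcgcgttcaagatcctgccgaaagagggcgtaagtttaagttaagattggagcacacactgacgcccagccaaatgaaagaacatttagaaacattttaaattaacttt
Neither window held, on either strand, a GATA motif (AGATAA or TGATAA), an ETS motif (CAGGAAGT or CCGGAAGT) or a SOX motif (AACAAT), so that no letters are in capitals. Families were searched separately, and their matches could overlap. Over the 27025 promoter windows of this length in RefSeq, 17.0%, 5.6% and 9.6% held at least 1 match. The same shares over called genes were void, because sequences matched 744 of 994 and 571 of 759 of them, under 80%.

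Genes of capillary endothelium and fatty acid handling set the venous libraries apart. Of 28 tested, 22 were called higher in venous and 1 in endocardial libraries, with a median log2 fold change of 2.60. Fabp4, a fatty acid binding protein, stood at 1424, 1284 and 1380.1 CPM in venous and 93.7, 128.9 and 136.6 CPM in endocardial libraries. Cd36, the long-chain fatty acid translocase, stood at 1803, 2046 and 2737 against 293, 238.7 and 264.5 CPM. The groups did not overlap: Fabp4 was 11.4-fold and Cd36 8.27-fold higher in venous libraries (adjusted p = 4.14e-09 and 2.44e-08). Btnl9, a butyrophilin-like gene used as a capillary marker, was at 348.5, 426.2 and 541.7 against 40.3, 27.2 and 36.4 CPM (log2 fold change 3.66 ± 0.20, adjusted p = 7.07e-09). Rgcc, a regulator of the cell cycle, was at 67.2, 66.1 and 78.1 against 4.28, 2.23 and 9.16 CPM (3.75 ± 0.40, adjusted p = 3.32e-05), and its log2 fold change was 4.45 without endocardial replicate 3. Ly6c1, a GPI-anchored surface protein, differed by 3.62 ± 0.23 and Car4, a membrane carbonic anhydrase of capillaries, by 3.48 ± 0.51 (adjusted p = 2.58e-08 and 0.000212).

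In the arterial libraries, Fabp4 was at 1427, 1142 and 1278 CPM, Cd36 at 1887, 2741 and 2277 CPM and Btnl9 at 702.8, 697.6 and 696.1 CPM in arterial replicates 1 to 3. The arterial libraries were the higher ones for Btnl9, without overlap, and Fabp4 and Cd36 overlapped with the venous levels. None of the 3 was called between arterial and venous libraries, a comparison that called 53 genes (0.31%) higher in arterial and 130 (0.76%) higher in venous libraries (adjusted p = 0.961, 0.977 and 0.13). Fabp5, a second fatty acid binding protein, was the one called member that went the other way, at 264.2, 252 and 204.3 CPM in venous and 320.2, 588.6 and 515.9 CPM in endocardial libraries (-0.98 ± 0.20, adjusted p = 0.00376). The basic helix-loop-helix factor Tcf15, a partner of Meox2 in heart capillaries, was higher in venous libraries by 1.93 ± 0.52 (adjusted p = 0.0225), a call lost without venous replicate 1 (adjusted p = 0.0745) or endocardial replicate 3 (0.0752); the log2 fold change was 2.80 without endocardial replicate 2.

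**Figure D2:**
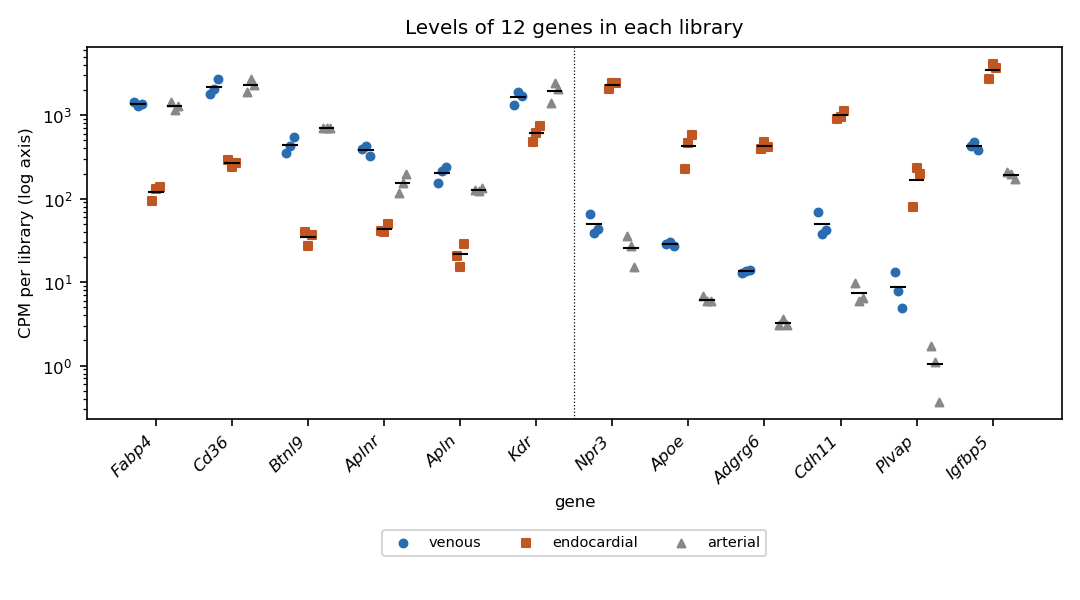
Levels of 12 genes in each library. The y axis is CPM on a log axis; each point is 1 library, blue circles venous, orange squares endocardial and grey triangles arterial, and the short black lines are the means of 3 libraries. The 6 genes left of the dotted line are higher in every venous than in every endocardial library, and the 6 genes right of it are lower; Fabp4 sits above 1200 CPM in each venous library and below 150 in each endocardial one.

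Tip cell and VEGF response genes were also tilted to the venous side. Of 26, 10 were called higher in venous and 0 in endocardial libraries, with a median of 0.65. On the endocardial side the count was also 0 at an unadjusted p under 0.05 and by DESeq2. The tilt was not particular to the venous libraries: 12 members were called higher in arterial than in endocardial libraries and 1 lower. Between arterial and venous libraries, 1 was called higher in arterial and 0 in venous ones. Apln, the ligand of Aplnr and a marker of angiogenic tips, was at 152.6, 212.3 and 240.7 CPM in venous and 20.7, 15.3 and 28.98 CPM in endocardial libraries. Kdr, the main VEGF receptor, was at 1342, 1912 and 1703 against 472, 617.1 and 733.2 CPM. Apelin ligand and receptor were thus both higher in each venous library, the ligand by 3.22 ± 0.24 (adjusted p = 2.23e-07), and Kdr was 2.72-fold higher (adjusted p = 0.000343). Nid2, a nidogen of the basement membrane, differed by 2.79 ± 0.29, Kcne3, a potassium channel subunit, by 2.75 ± 0.31 and Cd34, a sialomucin of sprouting endothelium, by 1.23 ± 0.20 (adjusted p = 5.25e-05, 1.64e-05 and 0.00052). Adm, which encodes the peptide adrenomedullin, was low in both groups, at 13.7, 11.6 and 11.5 and 1.83, 4.18 and 1.29 CPM (2.33 ± 0.53, adjusted p = 0.00777; 3.00 without endocardial replicate 2).

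Members of the venous endothelium list, chosen with earlier results of these data known, were called more in endocardial than in venous libraries. Of 15 tested, 2 were called higher in venous and 7 in endocardial libraries, with a median of -1.17. Between venous and arterial libraries, 6 of them were called higher in venous and 1 in arterial ones. Beside Aplnr, the one member called higher in the venous group was Nrp2, a neuropilin that serves VEGF-C and semaphorins, at 493.4, 558.4 and 577.3 against 165.8, 222 and 217.4 CPM (1.43 ± 0.16, adjusted p = 1.49e-05). Nr2f2, which encodes the venous fate factor COUP-TFII, was at 63.6, 51.6 and 49.05 CPM in venous and 113.2, 129.7 and 126.4 CPM in endocardial libraries (-1.17 ± 0.19, adjusted p = 0.000571). Cpe, a carboxypeptidase of prohormone processing, was at 207.5, 103.7 and 164.3 against 1919, 1859 and 1703 CPM (-3.53 ± 0.29, adjusted p = 6.59e-06), and the proteoglycan Bgn differed by -2.32 ± 0.23 (adjusted p = 4.12e-06). Nr2f2 and Cpe were thus lower in venous than in endocardial libraries while both were above the arterial ones in each library, Nr2f2 at 22.5, 17.9 and 18.2 CPM and Cpe at 42.4, 22.4 and 27.7 CPM (arterial minus venous, adjusted p = 0.000547 and 0.000902).

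Vwf, the von Willebrand factor, varied widely between replicates, at 42.9, 76.8 and 39.6 CPM in venous and 168.4, 771.6 and 640 CPM in endocardial libraries. The groups did not overlap, and endocardial replicate 1 was the low one of its group. The call (-3.31 ± 0.63, adjusted p = 0.018) was lost without venous replicate 1, 2 or 3 (adjusted p = 0.105, 0.0627 and 0.12), without endocardial replicate 2 or 3 (0.0643 and 0.0639) and without arterial replicate 2 (0.0517). Ephb4, the ephrin receptor of veins, was at 52.5, 126.8 and 62.8 against 38.9, 130.7 and 141.5 CPM, with overlapping groups (-0.36 ± 0.54, adjusted p = 0.776).

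Genes of arterial endothelium were split, with 7 of 25 called higher in venous, 4 in endocardial libraries and a median of 0.23; with the replicate block the endocardial count was 7. Gja5, the gap junction gene that defines mature arteries, was low in both, at 2.72, 5.87 and 4.61 and 5.35, 3.39 and 4.41 CPM, against 59.4, 84.3 and 100.4 CPM in arterial libraries. Venous and endocardial levels of Gja5 overlapped (adjusted p = 0.995). Cxcr4, the chemokine receptor of arterial tips, was at 20.2, 18.9 and 13.5 against 1.53, 1.01 and 1.09 CPM (3.85 ± 0.30, adjusted p = 3.2e-07), and the Notch ligand gene Jag2 differed by 3.04 ± 0.47 (adjusted p = 0.00107). On the other side, Gja4, a second arterial connexin gene, was at 5.86, 8.77 and 8.45 CPM in venous and 33.5, 60.9 and 53.2 CPM in endocardial libraries (-2.68 ± 0.31, adjusted p = 1.92e-05), the latter near its arterial level of 35.5, 67.7 and 62.9 CPM. Bmx, a Tec-family kinase of arterial and endocardial cells, was 11.3-fold higher in endocardial libraries (adjusted p = 6.43e-07). Cxcl12, the ligand of Cxcr4, was at 10.8, 28.6 and 28.9 against 10.01, 12.9 and 8.01 CPM and was not called (adjusted p = 0.164; 0.0486 with the replicate block and 0.00907 without venous replicate 1).

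Endocardial markers were lower in the venous libraries for 19 of 27 members tested, 1 was higher (Dll4; 2 with the replicate block and 0 without venous or endocardial replicate 2), and the median was -2.53. Adgrg6, an adhesion G protein-coupled receptor that heart trabeculation depends on, was at 12.8, 13.4 and 14.1 CPM in venous and 391.6, 483.8 and 417 CPM in endocardial libraries. Cdh11, a cadherin of mesenchyme and valves, was at 68.97, 37.7 and 42.3 against 902.8, 962.2 and 1125 CPM. Nrg1, the neuregulin that endocardium sends to the myocardium, was at 3.02, 2.72 and 1.89 against 29.7, 31.8 and 48.1 CPM. For each of the 3 genes the lowest endocardial library lay far above the highest venous one, with log2 fold changes of -5.0 ± 0.19, -4.33 ± 0.26 and -3.84 ± 0.49 (adjusted p = 2.02e-10, 7.04e-08 and 4.89e-05). Tmem108 differed by -4.09 ± 0.27 and Tgfbi, a matrix protein induced by TGF-beta, by -2.53 ± 0.21 (adjusted p = 4.16e-08 and 5.9e-07). Nfatc1, the calcineurin target that marks endocardium and valve endothelium, differed less, at 58.5, 58.8 and 56.4 against 108.9, 144.9 and 158.5 CPM (-1.25 ± 0.19, adjusted p = 0.000357).

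Some members did not follow the endocardial list. Dll4, a Notch ligand counted with the endocardial markers, was at 51.6, 86.5 and 53.4 CPM in venous and 22.4, 27.3 and 38.8 CPM in endocardial libraries. Its call (1.11 ± 0.29, adjusted p = 0.0247) was lost without venous replicate 2 (adjusted p = 0.105), endocardial replicate 1 (0.0789) or endocardial replicate 2 (0.116). Hapln1, a hyaluronan link protein of the cushions, ran from 100.7, 24.4 and 62.2 CPM in venous to 94.2, 91.7 and 103.2 CPM in endocardial libraries with overlap (adjusted p = 0.508), and Bmp2, a cushion-inducing factor, was at 22.3, 14.4 and 17.2 against 11.7, 9.51 and 7.33 CPM (adjusted p = 0.139); neither was called.

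The 15 largest endocardial rises by the rule for named genes held several surface and secreted proteins beyond these markers. Apoe, the apolipoprotein, was at 28.6, 30.1 and 26.7 CPM in venous and 229.4, 459.1 and 585.6 CPM in endocardial libraries. Dpp4, a serine exopeptidase of the cell surface, was at 13.9, 10.1 and 6.45 against 175.6, 201.4 and 224.2 CPM. Neither gene overlapped between the groups, and the differences were -3.90 ± 0.29 and -4.30 ± 0.35 (adjusted p = 6.43e-07 and 3.2e-06). Others were Col23a1, a transmembrane collagen (-4.76 ± 0.34), the aspartyl protease Bace2 (-3.66 ± 0.28) and Kank1, an adaptor of focal adhesions (-3.96 ± 0.47), with adjusted p of 8.7e-07, 4.9e-07 and 0.000767.

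On the venous side the same rule gave C1qtnf9, a secreted relative of adiponectin, at 50.8, 58.5 and 87.6 CPM in venous and 6.26, 3.75 and 4.004 CPM in endocardial libraries. Tmem255a was at 771.3, 746.9 and 821.2 against 67.2, 68.2 and 57.3 CPM. Prnd, the prion-like gene Doppel, was at 156.3, 109.4 and 135.7 against 14.4, 9.37 and 11.4 CPM. Venous libraries were higher in each case, by 3.81 ± 0.31, 3.60 ± 0.16 and 3.51 ± 0.22 (adjusted p = 4.63e-07, 7.57e-10 and 2.43e-08). Depp1 was at 21.6, 67.9 and 47.3 against 0.764, 3.60 and 2.78 CPM (4.25 ± 0.61, adjusted p = 0.00195). Fam78b was 12.4-fold higher in venous libraries (adjusted p = 1e-06). St8sia4, which adds polysialic acid to surface proteins, differed by 3.66 ± 0.44 and Slc28a2, a nucleoside transporter, by 3.54 ± 0.40 (adjusted p = 0.000647 and 2.65e-05). Their log2 fold changes were 4.45 without endocardial replicate 1 and 4.34 without endocardial replicate 2.

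Lymphatic endothelial genes were higher in the endocardial libraries for 6 of 13 tested and in the venous ones for 1, with a median of -2.15. Prox1, the master factor of lymphatic identity that is also active in valve endothelium, was at 26.5, 14.2 and 14.1 CPM in venous and 250.3, 261.5 and 212.6 CPM in endocardial libraries. Reln, the secreted glycoprotein reelin, was at 13.9, 6.85 and 4.66 against 138.7, 146.7 and 157.3 CPM. Lyve1, a hyaluronan receptor of lymphatic vessels and early endocardium, was at 11.4, 6.79 and 8.55 against 214, 233.6 and 271.8 CPM. The groups stood well apart in all 3, by -3.72 ± 0.26, -4.12 ± 0.36 and -4.75 ± 0.76 (adjusted p = 9.31e-08, 4.25e-06 and 0.00821). The call of Lyve1 was lost without venous replicate 2 (adjusted p = 0.0633) or 3 (0.0747). Ccl21a, the lymphatic chemokine, was at 0, 0 and 0.563 CPM in venous and 34.5, 38.6 and 56.4 CPM in endocardial libraries (adjusted p = 0.00395); its fitted log2 fold change of -7.69 rests on 1 venous library with counts and was -12.33 without it. The endocardial gate as written does not set lymphatic cells apart, and their part in these levels was not tested.

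**Figure D3:**
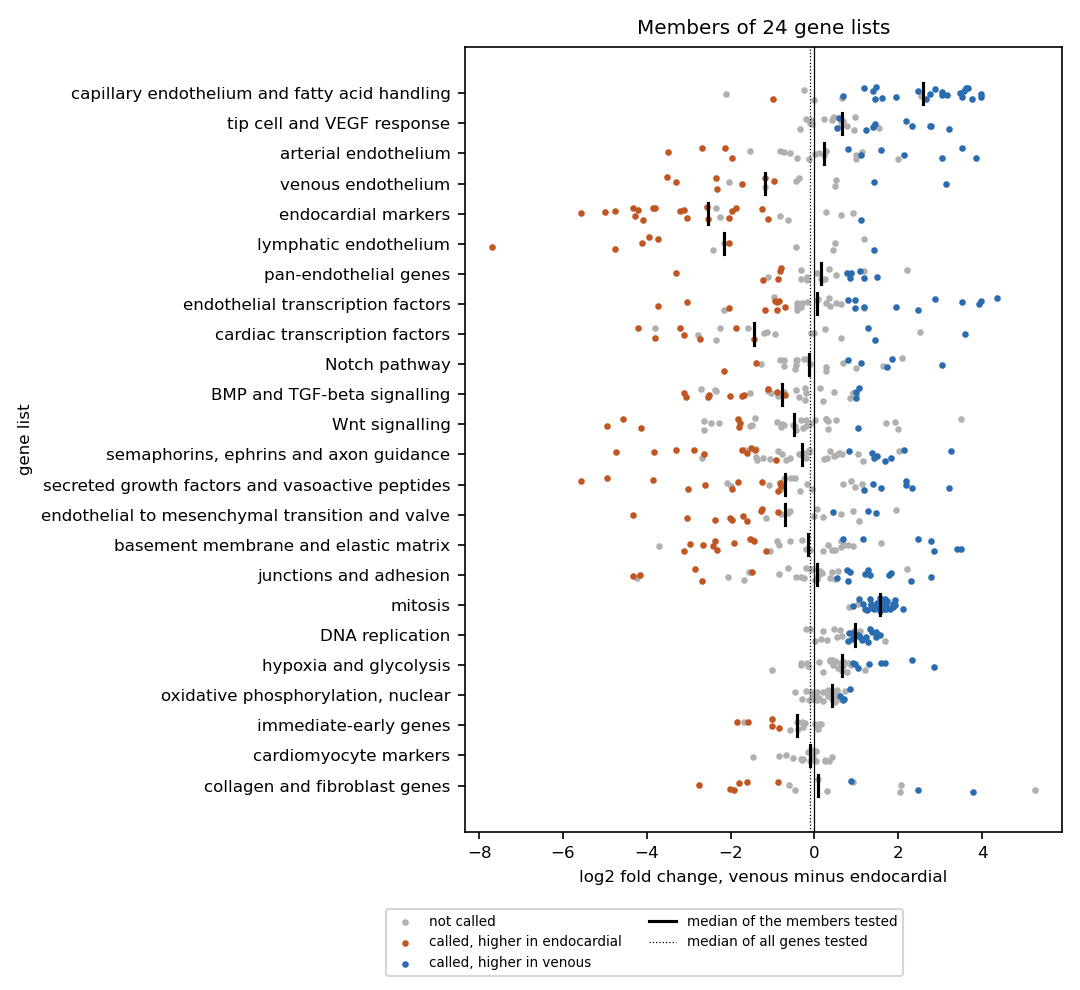
Log2 fold changes, venous minus endocardial, of the tested members of 24 gene lists. Each point is a gene, blue or orange where called higher in venous or endocardial libraries and grey where not called; black bars are list medians and the dotted line is the median of all genes tested, -0.10. The medians of the capillary and mitosis lists lie to the right of 0 and those of the endocardial and lymphatic lists to the left.

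Transcription factors divided the populations in both directions. Of 37 endothelial factors tested, 11 were called higher in venous and 9 in endocardial libraries, with a median of 0.07. Nr5a2, a nuclear receptor, was at 21.8, 19.3 and 18.8 CPM in venous and 1.60, 0.937 and 0.407 CPM in endocardial libraries. Dach1, a factor linked to coronary artery growth, was at 160.5, 153.3 and 216.2 against 17.49, 5.55 and 12.01 CPM. Sox17, a SoxF factor of arteries, was at 45.7, 35.9 and 36.8 against 5.88, 1.15 and 3.26 CPM. Wt1, the Wilms tumour factor that is also active in coronary endothelium, was at 136.5, 157.8 and 145.7 against 17.6, 18.8 and 23.7 CPM. These 4 factors were low in endocardial libraries and higher in each venous one, by 4.35 ± 0.43, 3.92 ± 0.37, 3.53 ± 0.43 and 2.87 ± 0.18 (adjusted p = 3.33e-06, 4.77e-05, 0.000102 and 3.33e-08). They were not particular to the venous libraries, as their arterial levels were no lower. Nr5a2 was at 28.01, 27.1 and 36.1 and Dach1 at 349.9, 272.5 and 261.8 CPM in arterial libraries. Neither was called between arterial and venous libraries (adjusted p = 0.716 and 0.577). Without endocardial replicate 1 the value of Sox17 was 4.16. Fli1, an ETS factor of endothelium at large, differed by 1.19 ± 0.16 (adjusted p = 8.3e-05). In the other direction, Foxc1, a forkhead factor of endocardium and lymphatics, was at 32.7, 23.9 and 23.2 against 238.5, 197.2 and 219.1 CPM (-3.04 ± 0.20, adjusted p = 4.16e-08), and Foxc2 differed by -2.03 ± 0.35 (adjusted p = 0.000864). Sall1, a zinc finger factor outside these lists, was at 11.4, 6.42 and 8.96 against 153.6, 230 and 199.3 CPM (-4.44 ± 0.29, adjusted p = 4.16e-08).

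Of 23 cardiac transcription factors tested, 3 were called higher in venous libraries (5 without endocardial replicate 1) and 7 in endocardial ones, with a median of -1.43. Gata6 was at 28.5, 30.7 and 28.01 CPM in venous and 83.3, 117.5 and 119.4 CPM in endocardial libraries. Irx5, an Iroquois factor, was at 1.66, 1.61 and 1.89 against 28.1, 36.3 and 31.5 CPM, and Meis2, a TALE homeobox factor, was at 28.6, 10.1 and 15.8 against 107.3, 138.8 and 112.9 CPM. All 3 were higher in each endocardial library, by -1.88 ± 0.22, -4.21 ± 0.52 and -2.72 ± 0.34 (adjusted p = 2.59e-05, 3.48e-05 and 0.000103). Tbx3, a T-box repressor, went the other way at 23.01, 51.2 and 37.5 against 5.73, 2.02 and 1.56 CPM (3.59 ± 0.48, adjusted p = 0.000278; 4.38 without endocardial replicate 1), as did Mef2c, a MADS-box factor, by 1.45 ± 0.16 (adjusted p = 1.13e-05). Gata4 was at 15.3, 10.1 and 5.12 against 28.3, 57.7 and 58.9 CPM, without overlap, and was not called (adjusted p = 0.0532; 0.00134 without arterial replicate 3). Tbx20, counted as an endocardial gene, was at 177.4, 115.6 and 113.8 CPM in venous, 100, 80.1 and 83.8 CPM in endocardial and 12.97, 14.5 and 15.1 CPM in arterial libraries. Its venous level was the higher one in each library without passing the test (0.62 ± 0.20, adjusted p = 0.0654), which it passed with the replicate block (0.0433) and without endocardial replicate 1 (0.0423).

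**Figure D4:**
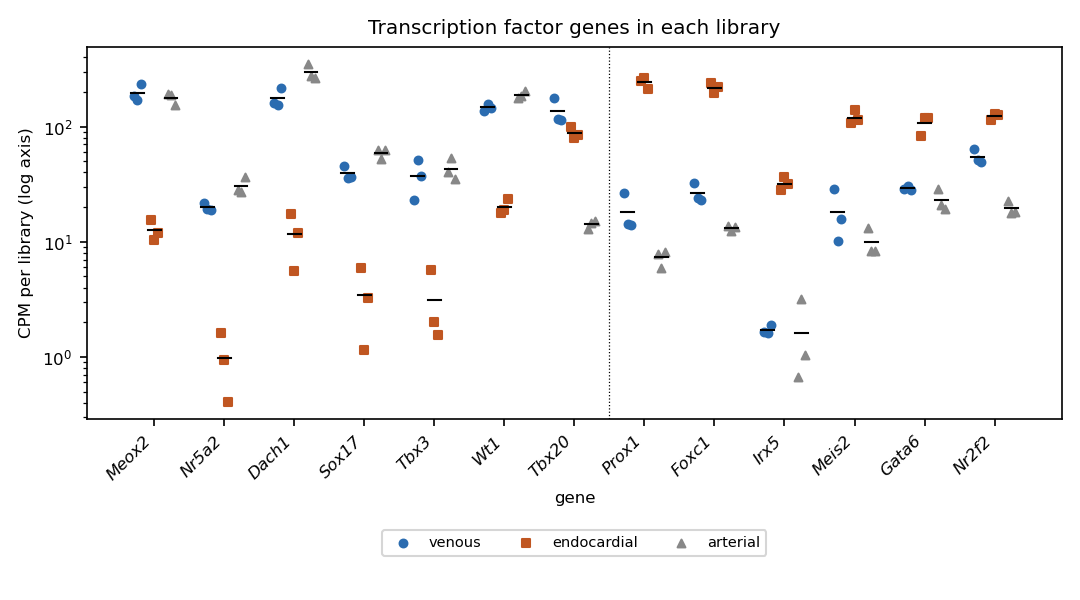
Transcription factor genes in each library. The y axis is CPM on a log axis, each point is 1 library (blue circles venous, orange squares endocardial, grey triangles arterial) and black lines are means of 3 libraries; the 7 genes left of the dotted line have the higher venous mean and the 6 right of it the higher endocardial mean. Tbx20 and Nr2f2 differ least between venous and endocardial libraries, and both are lowest in the arterial ones.

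Notch genes, which pattern arteries and trabeculae, showed no common direction: 5 of 24 were called higher in venous and 2 in endocardial libraries, with a median of -0.14. Over all genes tested the shares called were 5.81% and 4.44%. The venous count was 3 without venous replicate 2, endocardial replicate 1 or endocardial replicate 2, and the endocardial count was 5 without endocardial replicate 1, 5 with the replicate block and 1 without any other single venous or endocardial replicate. Among ligands, Jag2 was at 31, 52.3 and 38.2 CPM in venous and 1.60, 6.27 and 6.79 CPM in endocardial libraries, and Dll1 was at 12.95, 11.98 and 13.4 against 62.3, 52.7 and 56.9 CPM. The 2 ligands thus went opposite ways, Jag2 by 3.04 ± 0.47 and Dll1 by -2.16 ± 0.30 (adjusted p = 0.00107 and 0.000133). Jag1 was at 33.5, 41.9 and 31.6 against 55, 49.4 and 71.9 CPM and missed the threshold (adjusted p = 0.0536; 0.0313 with the block and 0.0293 without arterial replicate 1). Mfng, a glycosyltransferase that tunes Notch receptors, differed by 1.84 ± 0.27 and Nrarp, a target and feedback inhibitor of Notch, by 1.73 ± 0.28 (adjusted p = 0.000226 and 0.000488), both higher in venous libraries. The receptor gene Notch1 was at 208.3, 350.5 and 219.2 against 243, 543.3 and 581 CPM; the groups overlapped and it was not called (adjusted p = 0.265), whereas the fit with the block called it (0.0155), as did the one without endocardial replicate 1 (0.0303).

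Of 35 genes of BMP and TGF-beta signalling, 3 were called higher in venous and 10 in endocardial libraries, with a median of -0.77. Bmpr1a, a type 1 BMP receptor, was at 21.3, 18.03 and 22.1 CPM in venous and 153.8, 169.7 and 187.6 CPM in endocardial libraries. Id2, a BMP target, was at 32.7, 20.6 and 13.1 against 123.1, 134 and 121.6 CPM. Both were higher in each endocardial library, by -3.06 ± 0.28 and -2.51 ± 0.28 (adjusted p = 1.43e-06 and 1.25e-05). The co-receptor Tgfbr3 differed by -1.73 ± 0.23 and Ltbp1, which stores latent TGF-beta in the matrix, by -1.67 ± 0.23 (adjusted p = 8.72e-05 and 0.000188). The type 2 receptor Acvr2a and the signal transducer Smad1 went the other way, by 1.07 ± 0.18 and 1.00 ± 0.19 (adjusted p = 0.000768 and 0.00182).

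In the Wnt pathway 6 of 36 genes were called higher in endocardial libraries (3 without endocardial replicate 3) and 1 in venous ones (3 with the block and 2 without endocardial replicate 1 or 3 or arterial replicate 2 or 3), with a median of -0.49. Over all genes tested the shares called were 4.44% in endocardial and 5.81% in venous libraries. Wnt2, a ligand, was at 1.42, 0.0617 and 0.563 CPM in venous and 25.3, 14.6 and 24.3 CPM in endocardial libraries. Fzd1, a receptor, was at 9.41, 13.2 and 10.1 against 38.7, 30.9 and 42.6 CPM, and Apcdd1, an inhibitor and target, at 6.45, 5.80 and 6.14 against 21.8, 17.4 and 25.7 CPM. The groups did not overlap in any of the 3, with differences of -4.95 ± 0.79, -1.77 ± 0.29 and -1.82 ± 0.38 (adjusted p = 0.00062, 0.000552 and 0.00436); that of Wnt2 was -6.01 without venous replicate 1. Fzd4, the norrin receptor of growing vessels, was the called exception at 149, 165.1 and 169 against 76.5, 67.1 and 91.3 CPM (1.04 ± 0.23, adjusted p = 0.00648).

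Of 44 semaphorin, ephrin and guidance genes, 8 were called higher in venous and 10 in endocardial libraries (6 without venous replicate 3), with a median of -0.31. Epha7, an ephrin receptor, was at 23.7, 16.4 and 18.2 CPM in venous and 293.7, 240 and 289.7 CPM in endocardial libraries. Sema3a, a secreted repellent read by neuropilin 1, was at 22.8, 16.4 and 22.02 against 118.5, 131.5 and 133 CPM, and the semaphorin receptor Plxnc1 was at 43.5, 36.1 and 28.8 against 215, 266.7 and 311 CPM. All 3 were higher in each endocardial library, at -3.82 ± 0.23, -2.64 ± 0.26 and -2.87 ± 0.22 (adjusted p = 1.61e-08, 3.33e-06 and 2.04e-07). Unc5b, a netrin receptor of tip cells and arteries, was at 58.3, 106.3 and 81.4 against 12.99, 22.8 and 19.9 CPM, and Robo4, an endothelial roundabout receptor, at 125.8, 151 and 167.4 against 36.2, 64.5 and 58.4 CPM. Both were higher in venous libraries, by 2.14 ± 0.28 and 1.48 ± 0.22 (adjusted p = 0.000128 and 0.000195).

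Among 33 secreted factors and vasoactive peptides with their receptors, 7 were called higher in venous and 11 in endocardial libraries, with a median of -0.71. Igf2, the fetal insulin-like growth factor, was among the most abundant transcripts, at 3400.2, 4746 and 4015 CPM in venous and 9930.0, 15818 and 17056 CPM in endocardial libraries. Its binding protein gene Igfbp5 was at 432.8, 474.5 and 387.2 against 2728, 4119.9 and 3698 CPM. Igf2 was 3.52-fold and Igfbp5 8.15-fold higher in endocardial libraries (adjusted p = 7.67e-06 and 1.19e-08), whereas Igfbp3 was at 137.1, 108.3 and 80.3 against 31.5, 37.8 and 38.3 CPM, higher in venous ones (1.60 ± 0.20, adjusted p = 4.77e-05). Edn1, the vasoconstrictor endothelin 1, was at 21.2, 12.8 and 17.8 against 57.7, 76.2 and 67.1 CPM, and Ednrb, a receptor for it, at 182.1, 155 and 193.2 against 979.8, 1123 and 1127 CPM. Ligand and receptor were both higher in each endocardial library, by -1.96 ± 0.33 and -2.61 ± 0.19 (adjusted p = 0.000708 and 1.15e-07). The natriuretic peptide receptors split: the clearance receptor Npr3 was 47.2-fold higher in endocardial libraries, and the signalling receptor Npr1 was at 70.9, 123.1 and 88.2 against 32.01, 59.2 and 63.2 CPM, not called (adjusted p = 0.144) but called with the replicate block (0.00372).

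Basement membrane and elastic matrix genes were split, with 7 of 36 called higher in venous, 10 in endocardial libraries and a median of -0.15. Sparcl1, a matricellular protein, was at 2623, 3166 and 4350.1 CPM in venous and 317, 289.1 and 355.5 CPM in endocardial libraries. Col15a1, a basement membrane collagen, was at 288, 342.1 and 292.8 against 30.9, 37.8 and 59.04 CPM, and Vwa1 at 29.7, 53.3 and 50.3 against 3.21, 6.34 and 2.31 CPM. They differed by 3.40 ± 0.19, 2.85 ± 0.23 and 3.49 ± 0.38 with higher venous levels (adjusted p = 8.97e-09, 3.81e-07 and 1.77e-05). Fibronectin was the abundant gene on the other side: Fn1 was at 847.3, 1044 and 954.1 against 3496, 5461 and 5854 CPM (-2.38 ± 0.21, adjusted p = 1.88e-06). Mgp, an inhibitor of calcification and BMP, differed by -3.12 ± 0.32 (adjusted p = 4.7e-06).

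Of 24 genes of the endothelial to mesenchymal transition and valves, 10 were called higher in endocardial and 3 in venous libraries, with a median of -0.71; the venous count was 1 when any one of the venous replicates 1 to 3 or endocardial replicates 2 and 3 was left out. Zeb2, a repressor that acts in the transition, was at 67.9, 61.4 and 49.3 CPM in venous and 129, 160.1 and 141.5 CPM in endocardial libraries (-1.27 ± 0.19, adjusted p = 0.000264). Snai2, another such repressor, was at 41.1, 35.8 and 36.2 against 18.4, 8.94 and 13.2 CPM (1.48 ± 0.28, adjusted p = 0.00175). These repressors thus differed in opposite directions.

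Genes of collagen and fibroblasts were present in both groups, with 3 of 17 called higher in venous (1 without venous replicate 1 or 2) and 6 in endocardial libraries. Their summed level was 1824 to 2106 CPM in venous, 2601 to 3715 in endocardial and 246.6 to 287.5 in arterial libraries. Col1a1, a fibrillar collagen, was at 125.9, 179.4 and 142.1 CPM in venous and 21.8, 21.2 and 37.1 CPM in endocardial libraries (2.48 ± 0.30, adjusted p = 4.65e-05). Col3a1, a second one, was at 546.8, 581.3 and 449.9 against 284.3, 272.7 and 309.7 CPM (0.86 ± 0.22, adjusted p = 0.0205), a call lost without venous replicate 1 or 2 (adjusted p = 0.0579 and 0.0568) or endocardial replicate 1 or 2 (0.0556 and 0.0658). Col5a2, Postn and the fibroblast receptor gene Pdgfra were higher in endocardial libraries, by -1.93 ± 0.18, -0.87 ± 0.15 and -1.79 ± 0.22 (adjusted p = 1.65e-06, 0.000944 and 3.34e-05). Fewer cells of a type and less RNA per cell cannot be told apart in these bulk libraries, and the part of other cells in the matrix and valve genes above was not tested.

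Junction and adhesion genes held 11 of 38 called higher in venous and 5 in endocardial libraries (9 with DESeq2), with a median of 0.07. The protocadherin gene Pcdh17 was at 472.9, 507.5 and 546.8 CPM in venous and 77.2, 71.6 and 73.8 CPM in endocardial libraries, and Tjp1, the tight junction scaffold ZO-1, at 925.5, 926.3 and 1135 against 391.1, 409.5 and 432.7 CPM. Both were higher in each venous library, by 2.78 ± 0.15 and 1.28 ± 0.15 (adjusted p = 7.07e-09 and 1.64e-05). Cgnl1, a scaffold related to cingulin, was at 181.7, 160.2 and 176.7 against 1095, 1373 and 1259 CPM, 7.18-fold higher in endocardial libraries (adjusted p = 7.07e-09). Cdh5, the VE-cadherin common to endothelium, was at 1301, 1842 and 1531 against 628.5, 1030.0 and 1092 CPM. Its call (0.77 ± 0.21, adjusted p = 0.0322) was lost without venous replicate 2 or 3 (adjusted p = 0.149 and 0.0949), endocardial replicate 1 or 2 (0.0588 and 0.0634) or arterial replicate 3 (0.0675). Of 24 pan-endothelial genes, 6 were called higher in venous and 5 in endocardial libraries, with a median of 0.17.

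The caveola genes Cav1, Cav2 and Cavin1 and the diaphragm gene Plvap went opposite ways. Cav1, the main caveolin, was at 2662, 2783 and 2816 CPM in venous and 595.3, 683.3 and 872 CPM in endocardial libraries, and Cavin1, its coat partner, was at 449.8, 512.1 and 521.3 against 162.3, 289.4 and 288.4 CPM. Cav1 was 3.84-fold and Cavin1 2.004-fold higher in venous libraries (adjusted p = 9.73e-07 and 0.00301), against 19.5-fold higher Plvap in endocardial ones. In all, 4 of 11 members were called higher in venous and 1 in endocardial libraries, with a median of 0.42, 7 members positive and 4 negative. Cav2 differed by 0.90 ± 0.16 (adjusted p = 0.00102). Ehd2 was called by 0.85 ± 0.25 (adjusted p = 0.0467) and lost its call in 11 of the 19 alternatives.

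Cell cycle genes were higher in the venous libraries. All but 2 of 32 mitosis genes were called higher in venous libraries (30), with log2 fold changes from 0.82 to 2.12 and a median of 1.56. Mki67, the proliferation antigen Ki-67, was at 1900.5, 1594 and 2329 CPM in venous and 536.1, 461.8 and 542.1 CPM in endocardial libraries, and Top2a, a topoisomerase of dividing cells, was at 685.5, 598.3 and 776.6 against 245.1, 206.7 and 231.1 CPM. Both were higher in each venous library, 3.78-fold and 3.02-fold (adjusted p = 4.73e-06 and 1.13e-05). Kif11, a spindle motor, differed by 1.88 ± 0.18 and Cenpf, a kinetochore protein, by 1.79 ± 0.21 (adjusted p = 2.53e-06 and 1.71e-05). Of 32 replication genes, 17 were called higher in venous libraries, with a median of 0.96. No gene of either list was higher in endocardial libraries in edgeR at an adjusted or unadjusted p under 0.05, or by DESeq2. Pcna, the sliding clamp, was at 530.4, 419.2 and 514 against 214.4, 242.1 and 260.9 CPM (1.03 ± 0.18, adjusted p = 0.000854), and the flap nuclease Fen1 differed by 1.31 ± 0.26 (adjusted p = 0.00238). Summed mitosis levels were 4751 to 6334 CPM in venous, 1564 to 1829 in endocardial and 3672 to 5289 in arterial libraries.

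**Figure D5:**
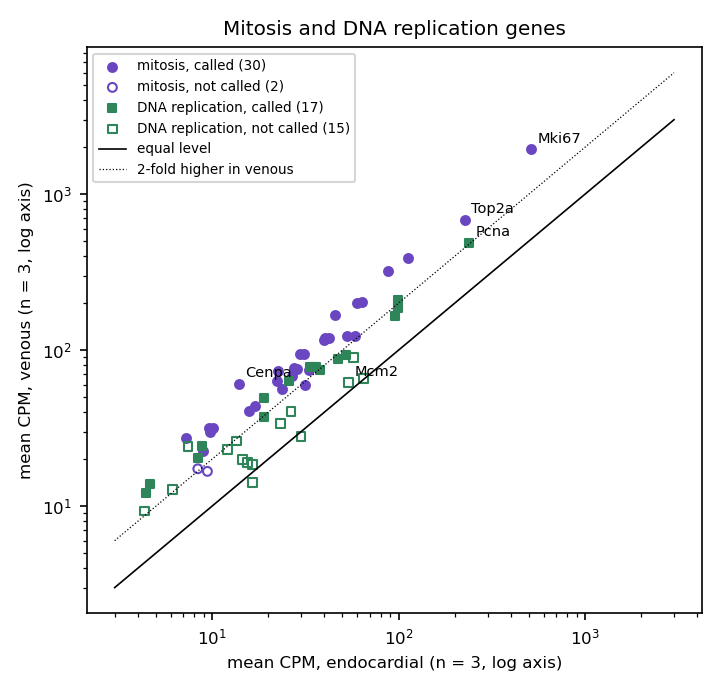
Mean level of mitosis (circles) and DNA replication (squares) genes in venous (y axis) against endocardial (x axis) libraries, in CPM on log axes, n = 3 each; filled symbols were called. The solid line marks equal levels and the dotted line 2-fold higher venous levels; 30 of 32 mitosis and 17 of 32 replication genes were called, and none of them below the solid line.

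Cyclins and cell cycle inhibitors were called in both directions. Cdkn1c, the inhibitor p57, was at 145.2, 156.2 and 127.2 CPM in venous and 1171, 1568 and 1336 CPM in endocardial libraries, 9.51-fold higher in the latter (adjusted p = 4.21e-09). Cdkn1b, the inhibitor p27, was at 96.7, 92.4 and 92.1 against 49.7, 31.4 and 41.6 CPM, 2.29-fold higher in venous libraries (adjusted p = 0.000809). The cyclins D1 and D2 were also opposed: Ccnd2 was at 160.7, 179.1 and 170.1 against 515.7, 911 and 877.7 CPM (-2.18 ± 0.21, adjusted p = 2.57e-06) and Ccnd1 at 498.7, 768.7 and 975.1 against 189.4, 368.9 and 316.1 CPM (1.36 ± 0.29, adjusted p = 0.0101; 0.065 without venous replicate 2). Over 20 such genes, 5 were called higher in venous (3, 2 and 3 without venous replicates 1, 2 and 3) and 2 in endocardial libraries, with a median of 0.68.

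Of 29 hypoxia and glycolysis genes, 8 were called higher in venous (14 with the replicate block, 5 without venous replicate 2) and 0 in endocardial libraries (0 also at an unadjusted p under 0.05 and by DESeq2), with a median of 0.66. Ankrd37, a hypoxia target, was at 47.97, 69.5 and 95.2 CPM in venous and 11.1, 9.15 and 9.30 CPM in endocardial libraries. Egln1, an oxygen-sensing prolyl hydroxylase and target of the same pathway, was at 179.2, 241.5 and 276.9 against 74.4, 78.1 and 80.97 CPM, and the glycolytic enzyme genes Pfkp and Eno1 at 50.3, 49.03 and 58.4 against 14.8, 16.2 and 18.1 CPM and 179.8, 232.1 and 165.1 against 82.2, 105.6 and 106.7 CPM. All 4 were higher in each venous library, by 2.85 ± 0.28, 1.58 ± 0.19, 1.68 ± 0.25 and 0.97 ± 0.20 (adjusted p = 3.89e-06, 2.2e-05, 0.000195 and 0.00316). Of 38 nuclear genes of oxidative phosphorylation, 4 were called higher in venous libraries, beside 5.81% of all genes tested, with a median of 0.43. The count was 0 without venous replicate 1, venous replicate 3 or endocardial replicate 2, 1 without venous replicate 2, and 2 without endocardial replicate 1 or 3 or arterial replicate 2. For the 13 mitochondrially encoded genes no call was made in either direction (median -0.21), with 1 in each direction at an unadjusted p under 0.05 or without arterial replicate 1, and 1 higher in venous libraries by DESeq2.

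Solute transporters held 8 of 29 genes called higher in venous and 4 in endocardial libraries, with a median of -0.19. The efflux pump genes Abcb1a and Abcg2 were at 62.9, 50.9 and 73.3 and 235.2, 252.5 and 265.8 CPM in venous libraries and at 18.4, 9.30 and 7.94 and 68.1, 71.6 and 78.1 CPM in endocardial ones. Aqp1, a water channel, was at 179.1, 264.2 and 233.5 against 54.6, 81.9 and 83.6 CPM. Each was higher in every venous library, by 2.39 ± 0.29, 1.79 ± 0.16 and 1.62 ± 0.21 (adjusted p = 3.95e-05, 1.03e-06 and 6.86e-05). Slc45a4, a transporter gene also counted as arterial, was higher in endocardial libraries by -2.13 ± 0.35 (adjusted p = 0.000562), and so was Trf, which encodes transferrin, by -2.66 ± 0.44 (adjusted p = 0.000642; -3.41 without venous replicate 1).

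Coagulation genes were split, 3 of 22 called higher in venous and 4 in endocardial libraries (2 without venous replicate 2 or 3 or endocardial replicate 3). Procr, the protein C receptor, was at 16.4, 16.2 and 20.8 CPM in venous and 55.8, 105.2 and 74.5 CPM in endocardial libraries, and F2r, a thrombin receptor, was at 428.7, 350.5 and 340.8 against 721.9, 787.6 and 973 CPM. Both were higher in each endocardial library, by -2.14 ± 0.27 and -1.15 ± 0.17 (adjusted p = 4.89e-05 and 0.000273). The plasminogen activator genes Plat and Plau were higher in venous ones, by 0.90 ± 0.19 and 2.39 ± 0.38 (adjusted p = 0.00423 and 0.000398).

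Of 29 genes of leukocyte adhesion, chemokines and antigen presentation, 1 was called higher in venous (0 without venous replicate 2 or endocardial replicate 1, 2 without venous replicate 1 or with the replicate block) and 3 in endocardial libraries (1 when any one of venous replicates 1 to 3 or endocardial replicates 2 and 3 was left out). Over all genes tested the shares called were 5.81% and 4.44%. Ackr3, the scavenging receptor for CXCL12, was at 23.2, 19.9 and 21.04 CPM in venous and 171.1, 234 and 222 CPM in endocardial libraries, with 22.4, 17.2 and 19.5 CPM in arterial ones. Its endocardial level was 9.76-fold the venous one (adjusted p = 2.43e-08), opposite to Cxcr4, the signalling receptor for the same chemokine. Shear stress genes had 4 of 19 called higher in venous and 4 in endocardial libraries (2 without venous replicate 3, endocardial replicate 2 or endocardial replicate 3), with a median of -0.61. Heg1, a receptor needed for heart and vessel integrity, was at 628, 758 and 868.9 against 1158, 1415 and 1725 CPM (-0.93 ± 0.18, adjusted p = 0.0021).

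Immediate-early genes, which answer to cell handling as well as to signals, were called higher in endocardial libraries for 5 of 16 and in venous ones for 0 (0 also at an unadjusted p under 0.05 and by DESeq2), with a median of -0.40. Egr1 was at 542.9, 501.7 and 578.3 CPM in venous and 960.3, 1252 and 1085 CPM in endocardial libraries (-1.02 ± 0.15, adjusted p = 0.000195), and Fosb at 207.8, 225 and 241.1 against 510, 807.4 and 690 CPM (-1.57 ± 0.17, adjusted p = 1.08e-05). The part of cell handling in these and other genes was not tested.

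Markers of other cells were counted in the same way. Of 18 cardiomyocyte genes tested, none was called by edgeR (1 was higher in endocardial libraries at an unadjusted p under 0.05, by DESeq2, with the replicate block or without endocardial replicate 1). Their summed level was 442.4 to 608.1 CPM in venous and 555.1 to 652 CPM in endocardial libraries, while Nppb was at 0 in all of them. Mural cell genes had 2 called higher in venous (4 with DESeq2) and 2 in endocardial libraries of 15 tested, at 247.9 to 359.5 against 147 to 248.3 CPM in sum. Abcc9 alone made up the larger part of the venous sums, at 174, 261.1 and 167.6 against 30.2, 53.3 and 63.05 CPM. The list median was 0.02, with 8 members positive and 7 negative. The mural markers Rgs5 and Abcc9 were higher in venous libraries, by 2.82 ± 0.33 and 2.04 ± 0.29, and Pdgfrb and Anpep in endocardial ones, by -2.12 ± 0.46 and -3.62 ± 0.36 (adjusted p = 1.98e-05, 0.000626, 0.00854 and 4.06e-06). Epicardial genes summed to 184.3 to 204.1 against 48.1 to 64.5 CPM, with 2 of 10 called higher in venous libraries (1 without venous replicate 2 or 3 or endocardial replicate 1 or 3). Wt1, given above and also active in coronary endothelium, was one of them and made up most of the venous sums. Of the 10 members, 5 had positive and 5 negative log2 fold changes. Leukocyte genes summed to 77.6 to 95.03 against 39.5 to 54.3 CPM. Most of this was Mrc1, a mannose receptor of macrophages and some endothelium, at 75.8, 88.4 and 68.7 against 29.6, 27.4 and 26.4 CPM. Mrc1 was the one called, by 1.48 ± 0.20 (adjusted p = 8.48e-05). Of the 8 members tested, 6 had negative log2 fold changes, and the median was -0.81. C1qa was at 0 in all 6 libraries. Erythroid and platelet genes summed to 234.9 to 395.6 against 98.4 to 265.8 CPM, with 0 called higher in venous (2 without endocardial replicate 2; 1 at an unadjusted p under 0.05 and 0 by DESeq2) and 1 in endocardial libraries (0 without venous replicate 2 or 3 or endocardial replicate 3). None of 5 neural and 5 sex-linked genes tested was called by edgeR, at an unadjusted p under 0.05 or by DESeq2. The part of these other cells in the results was not tested.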

How the data were processed

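RNA of sorted cells (PicoPure) was sequenced as single reads on a HiSeq 2500, and the labels name both a NEBNext Ultra and an Ovation Single Cell kit. The deposited table holds gene-level expected counts, made by the authors with RSEM 1.2.3 after CASAVA 1.8.2 and cutadapt 1.3 on GRCm38, per the submitters' processing notes; the aligner and strand setting were not given in the sources used here, so that genes overlapping an antisense partner, and near-identical copies, are uncertain. Of 41214 features, 40254 had a symbol. Values were rounded to whole counts (45.5% of those above 0 were not whole).

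Testing used edgeR 4.0.16 under R 4.3.3 (robust quasi-likelihood F test, TMM, minimum count of 10, 1 mean per population over 9 libraries), which left 17103 genes at a coefficient of variation of 0.639. The SE is the log2 fold change over the square root of F. The test was first run on simulated data, where it missed most 2-fold and some 4-fold changes and called some unchanged genes. Alternatives were DESeq2 1.42.0, a replicate block, 6 libraries, other scalings and filters, and leaving out libraries. The labels give replicate numbers as batches, which pairs the libraries; deviations of same-numbered venous and endocardial libraries correlated at 0.165, 0.0364 and 0.0924. Values with this block are printed beside calls they end or add and counts they move by over 1.5 times.

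Members and lists were chosen with earlier results of these data known. Named genes were the 15 largest called rises and falls at a mean log2 CPM of at least 4 without overlap (leaving out Xist, Y-linked and predicted genes and pseudogenes), up to 5 called members of each list with the smallest p, up to 2 against its majority, and fixed key genes; not all are named. Lists are described by counts and medians. Every list count is to be read beside the shares of all genes tested, 5.81% called higher in venous and 4.44% in endocardial libraries. Gene coordinates are GENCODE M21 and promoters RefSeq GRCm38.p6.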

Additional observations from a re-analysis of the deposited data

How the results depend on the processing

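No named gene reversed in any of the 19 alternatives run, no gene was called in opposite directions in any of them, and 121 of 168 named called genes kept their call in all of them; 47 lost it in at least 1. The number of genes called stayed within 1.5 times of 1753 with the 6 libraries alone (1794), the replicate block (2097), DESeq2 (2467), no filter (2195) and the other scalings and filters. Genes higher in endocardial numbered 1248 with DESeq2, against 759. Leaving out 1 library gave 1130 to 1871 genes called, 668 to 1056 higher in venous and 462 to 834 higher in endocardial libraries, the lowest without venous replicate 3. Left out in every population, a choice made after seeing the data, replicate 1 left 1768 genes (953 and 815), replicate 2 left 801 (459 and 342) and replicate 3 left 747 (447 and 300). The replicate block called 1223 and 874. Gata4, not called in the main comparison, was called by DESeq2, by the other scalings and filters and with 6 libraries; the cause was not tested. At a coefficient of variation of 0.639 between libraries, a gene not called is not shown to be equal.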

Other observations

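Of the genes called higher in venous libraries, 15 had no count in any endocardial library, and of those called higher in endocardial libraries, 4 had none in any venous library. Matching counts over all genes tested were not made. Genes could pass the filter on low counts through the arterial libraries too, so that 15 and 4 do not compare the populations. At a mean log2 CPM of at least 4 over all 9 libraries, 818 genes were called higher in venous and 433 in endocardial libraries. The arterial libraries enter this mean, and the genes tested at this level were not counted. The 818 and 433 therefore do not compare the 2 sides. Of the endothelial genes in the pan-endothelial list, Ptprb, a receptor phosphatase of VE-cadherin and Tie2, was at 641.4, 875.2 and 804.3 CPM in venous and 314.6, 341.3 and 429.3 CPM in endocardial libraries (1.10 ± 0.19, adjusted p = 0.000896). Mmrn2, a matrix multimerin that binds VEGF-A, was at 165.9, 197.3 and 180.6 against 335.5, 490.8 and 455.9 CPM (-1.24 ± 0.17, adjusted p = 0.000122), and Calcrl, the receptor subunit for adrenomedullin, at 191.4, 221.9 and 172.7 against 318.9, 375.7 and 368.2 CPM (-0.86 ± 0.16, adjusted p = 0.00143). These 3 genes of endothelium at large were thus unequal between the populations in different directions, with no overlap between the groups.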
